A study of Mus musculus with 14 samples.

Results

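The genes described here are 53 mouse genes that encode matrix glycoproteins, proteoglycans and enzymes that act on collagen. They were taken by gene symbol from a list that was drawn up with earlier results of these data known, and all 53 were found among the 49315 genes of the spleen count table and among the 18603 genes of the ovary table. By the known role of their products they were placed in 5 groups: 10 basement membrane genes, 15 elastic fibre genes, 7 leucine-rich proteoglycan genes, 11 collagen-modifying genes, and 10 adhesive and matricellular genes. Poly(A) RNA had been sequenced from spleens of 4 WT and 4 L2-cKO mice and from ovaries of 3 WT and 3 L2-cKO mice, with 1 animal per library. The question of the study was which transcripts change in level when ZFP36L2, an RNA-binding protein of the tristetraprolin family that speeds the decay of mRNAs with AU-rich elements, is missing.

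L2-cKO mice (called L2-fKO in the study's text) were Zfp36l2-/-;CMV-Cre: exon 2 of *Zfp36l2* was flanked by loxP sites and had been removed by Cre under the CMV promoter, which is active in the early embryo, so the deletion was in all tissues and not limited to a cell type. WT mice were littermates in which neither copy of *Zfp36l2* was altered, and they carried Tg.CMV-Cre too, so that the transgene was shared by every group. The study describes the animals as young pups in age-matched pairs, and the age of each animal is not given in the sources used here. Of the spleen donors, 2 WT and 1 L2-cKO were female and 2 WT and 3 L2-cKO were male, and all ovary donors were female. L2-cKO spleen 3 and L2-cKO ovary 1 came from the same animal. The labels call the spleen source Spleen Organoid, whereas the study describes spleens.

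The extracellular matrix is built in layers that use different genes. Basement membranes are sheets of laminin and collagen IV networks that nidogens, perlecan and agrin bind together beneath endothelium and epithelium and around muscle. Elastic fibres have an elastin core on a scaffold of fibrillin microfibrils, which fibulins, EMILINs, microfibril-associated proteins and latent TGF-beta binding proteins assemble and decorate. Small leucine-rich proteoglycans sit on collagen fibrils and set their width and spacing. Inside the cell, lysyl and prolyl hydroxylases and the chaperone HSP47 prepare collagen chains for folding, and outside it lysyl oxidases cross-link collagen and elastin. In spleen the matrix forms the capsule, the trabeculae, the reticular fibre network and the walls of the sinuses, and in the neonatal ovary it surrounds the follicles and fills the stroma.

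ZFP36L2 binds AU-rich elements in 3′UTRs, and from gel shifts the study proposes the 7-mer UAUUUAU as the shortest motif it needs. The 7-mer was located in 3′UTRs annotated by GENCODE M21 on GRCm38 (longest one per gene, strand of the transcript only, overlapping matches counted). It was present in the 3′UTR of 14 of the 53 members (26.4%), against 29.5% of all genes with an annotated 3′UTR that were tested in the spleen, a share that the members did not exceed. The matches shown are those of the members that the spleen results turn on (*Nid2*, *Plod2*, *P3h2* and *Fn1*) and of *Thbs2*, which had the most matches of any member. Each is shown from 5′ to 3′ with 8 bases on either side, and the capitals mark the 7-mer.
*Nid2*: ucagacuuUAUUUAUacuaaggu
*Plod2*, match 1: aaaguuggUAUUUAUuucugugc
*Plod2*, match 2: gaagguuuUAUUUAUcggugggg
*P3h2*: cuauugaaUAUUUAUuuaaauag
*Fn1*: cuguuuguUAUUUAUcaauuuuu
*Thbs2*, match 1: acuugcagUAUUUAUguguauau
*Thbs2*, match 2: uuuguuaaUAUUUAUuaaaugau
*Thbs2*, match 3: uuguaaauUAUUUAUguaguuuu
*Thbs2*, match 4: auuguaaaUAUUUAUuuauuugu

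All of these windows lie in the exonic 3′UTR of the gene named. The *Nid2* window is at chr14:19811643-19811665 on the plus strand, from base 455 of a 3′UTR of 591 nucleotides for the 7-mer itself. Both *Plod2* windows are on the plus strand, at chr9:92607455-92607477 and chr9:92607584-92607606. The *P3h2* window, at chr16:25960322-25960344 on the minus strand, is of those shown the closest to a stop codon, with the 7-mer at bases 22 to 28 of the 3′UTR. The *Fn1* window is at chr1:71585683-71585705 on the minus strand. The 4 *Thbs2* windows are on the minus strand at chr17:14667168-14667190, chr17:14666466-14666488, chr17:14665685-14665707 and chr17:14665600-14665622, and another 7-mer of *Thbs2* begins at the last 3 capitals of match 4 and ends in the lower case letters after them. *Lama5*, *Lamc1*, *Fbln1*, *Efemp1*, *Emilin2*, *Loxl2*, *Lox*, *Serpinh1* and *Vcan* each had 1 match. A match is a description of the sequence, and binding by ZFP36L2 was not measured in these data.

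The spleen libraries held 39138010 to 45167464 counts on genes, and the ovary libraries 31052510 to 44270070 reads recovered from the deposited values. Levels are given as normalized counts, that is, counts scaled to a common library size within each organ, and the spleen and ovary scales are separate. *Zfp36l2* itself had normalized counts of 7394, 4773, 6429 and 4362 in WT spleens 1 to 4 and of 278, 326, 349 and 405 in L2-cKO spleens 1 to 4, and of 4745 to 4906 in WT ovaries and 758 to 1011 in L2-cKO ovaries, so every library went with its label. Oocyte markers summed to 122711 to 124892 in WT ovaries and 104347 to 127615 in L2-cKO ovaries, and to 123 to 207 and 42.8 to 53.7 in the spleens, where erythroid markers were plentiful. Among the L2-cKO spleens, library 4 stood apart: it had the highest value of its group for 43 of the 53 members, while L2-cKO spleen 3 had the lowest for 30. WT spleens 1, 2 and 4 held pancreatic acinar transcripts (summed normalized counts of 25779, 7858 and 22354 over 12 marker genes, against 1644 in WT spleen 3 and 1256 to 2182 in the L2-cKO spleens). The results below are therefore also given without L2-cKO spleen 4 and without WT spleens 1, 2 and 4 where these change a call.

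In the spleen the matrix genes were shifted toward higher levels in L2-cKO. Of the 53 members, 9 rose by the limits of the study (adjusted p below 0.05 and a log2 fold change above 1 in size), and none fell. In bulk RNA a change in the number of cells of a type and a change in RNA per cell cannot be told apart. The 9 called genes were *Lum*, *Sfrp4*, *Sparcl1*, *Nid2*, *Emilin1*, *Plod2*, *P3h2*, *Fn1* and *Matn2*. Over all 16911 genes tested, 2.9% were called higher and 3.11% lower. By adjusted p alone 27 members rose and none fell, where 6.89% of all genes rose and 6.51% fell. The number that rose ranged from 18 (without WT spleen 4) to 26 (without L2-cKO spleen 4) when each spleen was left out. It was 24 with sex as a covariate and 22 in males only. The log2 fold change was above 0 for 41 members (47.8% of all genes), with a median of 0.48 over the members and -0.020 over all genes tested. In 28 members every L2-cKO library was above every WT library (9.61% of all genes), and the reverse held for none (10.8% of all genes). All 53 members passed the filter on low counts in both organs.

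The median log2 fold change in spleen was 0.95 for the adhesive and matricellular genes, 0.66 for the collagen-modifying genes and 0.61 for the basement membrane genes, but 0.051 for the elastic fibre genes and -0.090 for the leucine-rich proteoglycan genes. At an adjusted p below 0.05, 9 of 11 collagen-modifying, 7 of 10 adhesive and matricellular and 5 of 10 basement membrane genes rose, against 4 of 15 elastic fibre and 2 of 7 leucine-rich proteoglycan genes. The order of these shares depended on the fit: without WT spleen 1, 7 of 11 collagen-modifying and 7 of 10 adhesive genes rose, and with sex as a covariate, 3 of 15 elastic fibre and 1 of 7 proteoglycan genes. Against WT spleen 3 alone, without the 3 WT spleens with the most acinar transcripts, the medians were 0.79 for the adhesive and matricellular genes, 0.51 for the collagen-modifying genes and 0.43 for the basement membrane genes. They were 0.11 for the elastic fibre genes and -0.057 for the leucine-rich proteoglycan genes. That fit has 1 WT library. All of these values are descriptions of the lists, and the difference between groups was not tested.

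**Figure D1:**
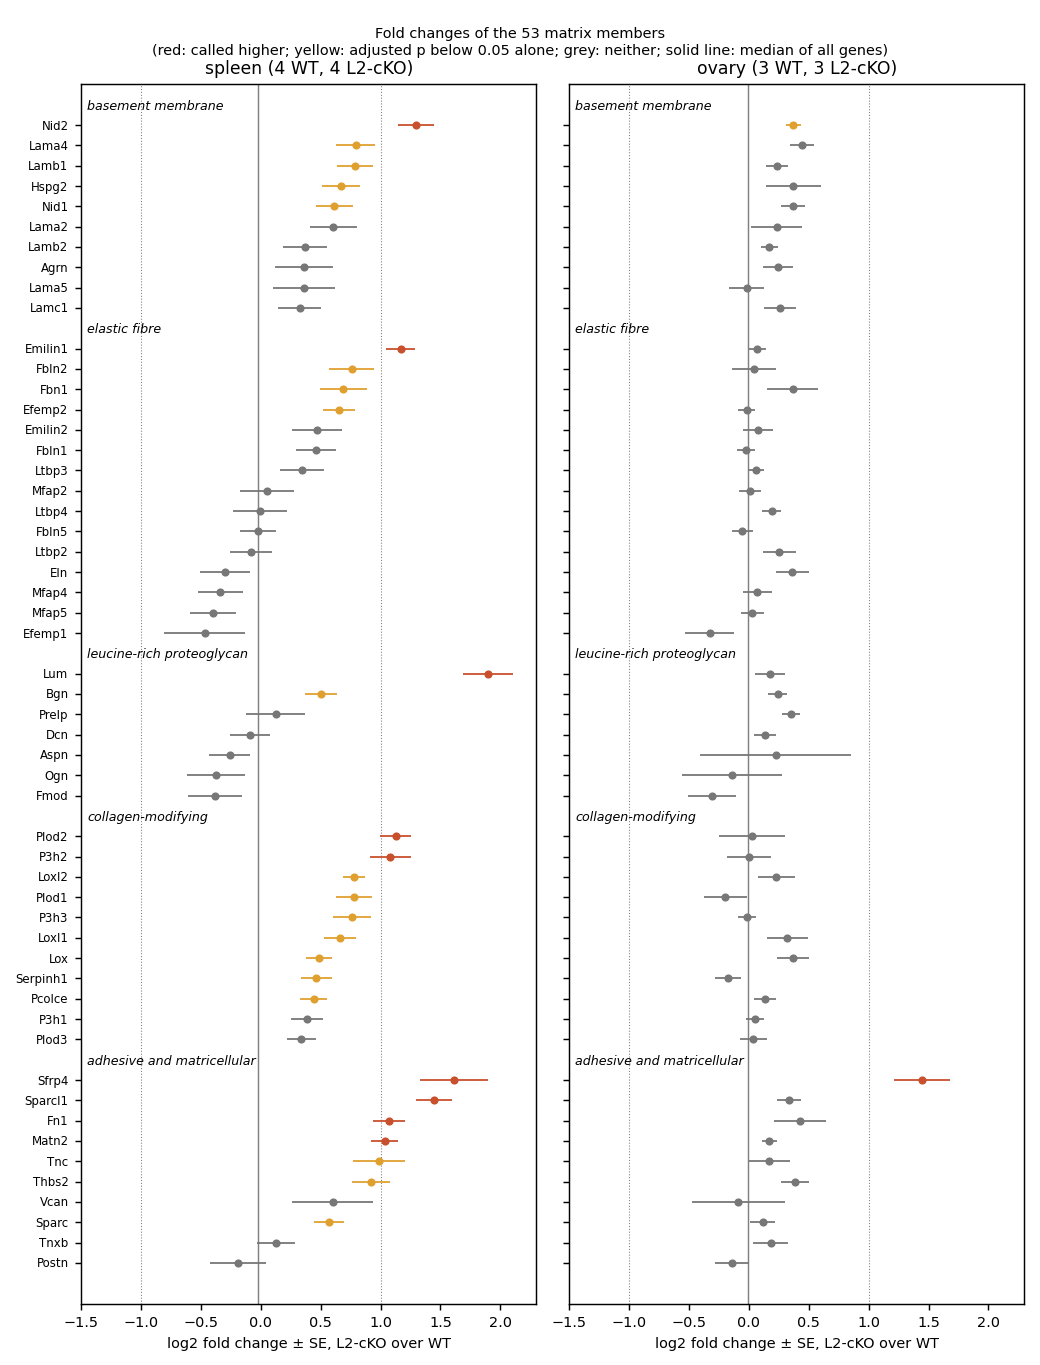
Log2 fold change ± SE (L2-cKO over WT, horizontal axis) of each of the 53 members in spleen (left) and ovary (right), arranged by group. Red points are called higher, yellow points have an adjusted p below 0.05 without a log2 fold change above 1, dotted lines mark -1 and 1, and the solid line is the median of all genes tested; 9 members are red in the spleen and 1, *Sfrp4*, in the ovary.

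Basement membrane genes were above 0 in the fit for all 10 members, and *Nid2* was called. *Nid2* (chr14:19751265-19811787, plus strand) encodes nidogen-2, which links laminin to collagen IV. Its normalized counts were 868, 745, 1056 and 821 in WT spleens 1 to 4 and 1879, 2040.3, 1971 and 2668 in L2-cKO spleens 1 to 4, so the lowest L2-cKO library lay above the highest WT library by a wide margin. The log2 fold change was 1.29 ± 0.15 (SE, adjusted p = 6.95e-04). *Nid1*, for nidogen-1, which performs the same bridging, also rose: its counts were 8932, 8373, 9387 and 8437 in WT and 11620.5, 12849, 11404 and 17869.5 in L2-cKO, a log2 fold change of 0.61 ± 0.15 (adjusted p = 0.0279). With sex as a covariate *Nid1* had 0.60 (adjusted p = 0.0540) and did not pass.

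Laminins are trimers of an alpha, a beta and a gamma chain, and 2 of the 6 chain genes passed the test. *Lama4*, the alpha-4 chain of vascular basement membranes, rose by 0.79 (adjusted p = 0.0131) on the log2 scale, from between 422 and 448 normalized counts in WT to between 624 and 1025 in L2-cKO. *Lamb1*, a beta chain that pairs with it, rose by 0.78 (adjusted p = 0.00908). *Lamc1*, the gamma chain common to most laminins, had a log2 fold change of 0.32 ± 0.18 with overlapping libraries (adjusted p = 0.259). Values for the other chains were 0.60 (adjusted p = 0.0715) for *Lama2*, 0.37 (adjusted p = 0.211) for *Lamb2* and 0.36 (adjusted p = 0.393) for *Lama5*. None of these 4 passed the test, although the *Lama2* libraries did not overlap. Of the heparan sulfate proteoglycans, *Hspg2* (perlecan) rose by 0.67 (adjusted p = 0.0221) and *Agrn* (agrin) had 0.36 (adjusted p = 0.359).

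L2-cKO spleen 4 was the highest L2-cKO library for every laminin chain. Without it the median of the group was 0.44, 5 genes still passed the adjusted p limit and *Nid2* kept a log2 fold change of 1.17 (adjusted p = 6.72e-04). Against WT spleen 3 alone, the WT library with the fewest acinar transcripts, the *Nid2* value was 1.02 (adjusted p = 0.131), while *Agrn* and *Lama5* were at -0.15 and -0.0089.

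In the elastic fibre group 1 gene was called, and the values of its members lay on both sides of 0. *Emilin1* (chr5:30913402-30921277, plus strand), for an elastin microfibril interface glycoprotein, was called: its normalized counts were 4563, 4824, 5359 and 4468 in WT spleens and 10118, 10449, 9693 and 12926 in L2-cKO spleens, a log2 fold change of 1.17 ± 0.12 (adjusted p = 4.11e-04). All 4 L2-cKO libraries were at or above 9693, and no WT library was above 5359. *Eln*, for elastin itself, had 34729, 60745, 53495 and 48200.0 in WT and 39532, 45732, 28981 and 46048 in L2-cKO, with groups that overlapped (log2 fold change -0.30 ± 0.21, adjusted p = 0.37). Elastin was the most abundant elastic fibre transcript in WT spleen at 6087 normalized counts per kb of exon.

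By adjusted p, 3 more elastic fibre genes rose. *Fbn1*, for fibrillin-1, the main microfibril protein, rose by 0.69 (adjusted p = 0.0426) on the log2 scale. *Fbln2*, for fibulin-2, rose by 0.76 (adjusted p = 0.0264). *Efemp2*, for fibulin-4, which is needed for elastin cross-linking, rose by 0.65 (adjusted p = 0.0124), from between 708 and 1011 to between 1280.5 and 1441 normalized counts. *Fbn1* did not pass without L2-cKO spleen 4, with 0.57 (adjusted p = 0.0648), or with sex as a covariate, with 0.70 (adjusted p = 0.0692). The remaining fibulins did not pass: *Fbln1* had 0.46 (adjusted p = 0.0946), *Fbln5* -0.026 (adjusted p = 0.931) and *Efemp1* -0.47 (adjusted p = 0.393). *Efemp1* was also the most variable member among L2-cKO spleens, with 137, 232, 91.2 and 322 in libraries 1 to 4 and a coefficient of variation of 52.6%.

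The microfibril-associated genes and the latent TGF-beta binding proteins gave no call. Log2 fold changes were 0.051 for *Mfap2*, -0.34 for *Mfap4* and -0.40 for *Mfap5*, with adjusted p of 0.909, 0.268 and 0.202. Among the latent TGF-beta binding proteins, which tether the growth factor to microfibrils, *Ltbp2* had -0.080 (adjusted p = 0.801), *Ltbp3* 0.35 (adjusted p = 0.247) and *Ltbp4* -0.0071 (adjusted p = 0.988). *Emilin2*, a paralog of *Emilin1*, had 0.47 (adjusted p = 0.163), and L2-cKO spleen 4 was its lowest L2-cKO library at 4425 where the other 3 had 7039.9, 6979 and 8815. Without that library the *Emilin2* log2 fold change was 0.63 (adjusted p = 0.0241). The median of the elastic fibre group changed sign without L2-cKO spleen 4 (-0.063) and without WT spleen 1 (-0.034). It also did so with sex as a covariate (-0.10) and with the replicate block (-0.043).

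Of the leucine-rich proteoglycans, *Lum* had the largest log2 fold change of the 53 members in the spleen. *Lum* (chr10:97565128-97572703, plus strand) encodes lumican, a keratan sulfate proteoglycan that binds collagen fibrils. Its normalized counts were 47.2, 73.7, 68.6 and 75.8 in WT spleens and 302, 214, 249.8 and 225 in L2-cKO spleens, a log2 fold change of 1.90 ± 0.21 (adjusted p = 5.01e-04). *Lum* was low in WT spleen (27.1 normalized counts per kb of exon), and its lowest L2-cKO library still had 214.

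Its nearest neighbour among the members did not pass the test. *Dcn*, for decorin, lies 46984 bases from *Lum* on chromosome 10, and had 820.5, 639, 991 and 1134 in WT and 894, 873, 781 and 819 in L2-cKO, with overlapping groups and a log2 fold change of -0.090 ± 0.17 (adjusted p = 0.761). *Kera* and *Epyc*, the next 2 genes of that cluster, were below the filter on low counts in the spleen and were not tested. *Bgn*, for biglycan, the paralog closest to decorin in sequence, rose by 0.50 (adjusted p = 0.0351) on the log2 scale, from between 8981 and 11092 to between 12133 and 17102 normalized counts. With sex as a covariate *Bgn* had 0.45 (adjusted p = 0.0620) and did not pass. The other 4 did not pass: *Fmod* (fibromodulin) had -0.38 (adjusted p = 0.293), *Ogn* (osteoglycin) -0.37 (adjusted p = 0.347), *Aspn* (asporin) -0.26 (adjusted p = 0.356) and *Prelp* 0.12 (adjusted p = 0.776). *Prelp* and *Fmod* are also neighbours, 115839 bases apart on chromosome 1.

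Collagen-modifying genes were above 0 in all 11 members, and 9 of the 11 had L2-cKO libraries that did not overlap the WT libraries. *Plod2* (chr9:92542223-92608428, plus strand) encodes lysyl hydroxylase 2, which hydroxylates telopeptide lysines and thereby directs the type of collagen cross-link. Its normalized counts were 582, 546, 697 and 495 in WT spleens and 1194, 1289, 1200.3 and 1385 in L2-cKO spleens, a log2 fold change of 1.13 ± 0.13 (adjusted p = 6.06e-04). *P3h2* (chr16:25959288-26105784, minus strand) encodes prolyl 3-hydroxylase 2, which acts mainly on basement membrane collagen. It had 807, 739, 875 and 719.6 in WT and 1578, 1688, 1217 and 2168 in L2-cKO, a log2 fold change of 1.08 ± 0.17 (adjusted p = 0.00329). Both carry the 7-mer shown above. The *P3h2* call rested on L2-cKO spleen 4, since without that library the log2 fold change was 0.93 (adjusted p = 0.00266).

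Each of the enzyme families held at least 1 gene that rose by adjusted p. Among the lysyl hydroxylases, *Plod1* rose by 0.78 (adjusted p = 0.00955) and *Plod3* had 0.34 (adjusted p = 0.0938). *P3h3* rose by 0.76 (adjusted p = 0.0137) among the prolyl 3-hydroxylases, and *P3h1* had 0.38 (adjusted p = 0.0899). The 3 lysyl oxidases among the members rose by adjusted p, with 0.48 (adjusted p = 0.0187) for *Lox*, 0.66 (adjusted p = 0.0115) for *Loxl1* and 0.78 (adjusted p = 6.78e-04) for *Loxl2*. The lysyl oxidases *Loxl3* and *Loxl4*, which are not members, had 0.34 (adjusted p = 0.19) and 1.27 (adjusted p = 0.0572) and did not pass. *Loxl2* was the least variable member in both spleen groups, with 936, 962, 994 and 965 in WT and 1561, 1639, 1682 and 1733 in L2-cKO, so its change, though below the fold limit, exceeded the spread within either group. *Pcolce*, which enhances removal of the procollagen C-propeptide, rose by 0.44 (adjusted p = 0.0326), and *Serpinh1*, for the collagen chaperone HSP47, rose by 0.46 (adjusted p = 0.0422). Without L2-cKO spleen 4 *Serpinh1* had 0.40 (adjusted p = 0.0542) and did not pass.

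Among adhesive and matricellular genes, 4 of 10 were called. *Fn1* (chr1:71585520-71653200, minus strand) encodes fibronectin, the integrin ligand on which other matrix proteins assemble. It had 12601, 11726, 16397 and 12922 normalized counts in WT spleens and 26890.4, 27916, 26547 and 31321 in L2-cKO spleens, a log2 fold change of 1.07 ± 0.13 (adjusted p = 0.00104). *Sparcl1* (chr5:104079111-104113733, minus strand) encodes hevin, a SPARC-like glycoprotein that is abundant in blood vessels. Its counts were 3773, 2434, 3185 and 2558 in WT and 8141, 7288, 8134 and 9023 in L2-cKO, a log2 fold change of 1.45 ± 0.15 (adjusted p = 4.11e-04). *Sparcl1* was the only member that stayed called under each of the 16 alternative settings run for the spleen.

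The other 2 called genes of this group were expressed at lower levels. *Matn2* (chr15:34306677-34436273, plus strand), for the filament-forming adaptor matrilin-2, had 643, 701, 846 and 679 in WT and 1452, 1381, 1498 and 1548 in L2-cKO (log2 fold change 1.04 ± 0.11, adjusted p = 5.17e-04), and without WT spleen 1 its log2 fold change was 0.99, just under the limit. *Sfrp4* (chr13:19623104-19632994, plus strand), for a secreted frizzled-related protein that binds Wnt ligands, had 40.6, 53.5, 106 and 80.9 in WT and 236, 227, 207 and 189 in L2-cKO (log2 fold change 1.61 ± 0.28, adjusted p = 0.0061). *Sfrp4* varied among WT spleens, with a coefficient of variation of 41.7%, yet the highest WT library, WT 3, was below the lowest L2-cKO library.

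Just under the fold limit were *Tnc* and *Thbs2*. *Tnc*, for tenascin-C, an antiadhesive glycoprotein of developing and remodelling tissue, had 105, 193, 168 and 147 in WT and 381, 271, 286 and 275 in L2-cKO, a rise of 0.99 (adjusted p = 0.0159) on the log2 scale. *Thbs2*, for thrombospondin-2, which limits angiogenesis and has 5 of the 7-mers in its 3′UTR, had 1340.1, 1661, 1628 and 1517 in WT and 2752, 3097, 2136 and 3637 in L2-cKO, a rise of 0.92 (adjusted p = 0.00569). *Sparc*, for the collagen-binding glycoprotein osteonectin, was the member with the highest level per length in both organs and rose by 0.57 (adjusted p = 0.018). The last 3 members had values of 0.60 (adjusted p = 0.274) for *Vcan* (versican, a large chondroitin sulfate proteoglycan), 0.13 (adjusted p = 0.625) for *Tnxb* (tenascin-X) and -0.19 (adjusted p = 0.625) for *Postn* (periostin). *Postn* was the only member to pass the test in the lower direction when L2-cKO spleen 4 was left out (-0.49, adjusted p = 0.0447), since that library had 1529 against 628 to 889 in the other 3.

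**Figure D2:**
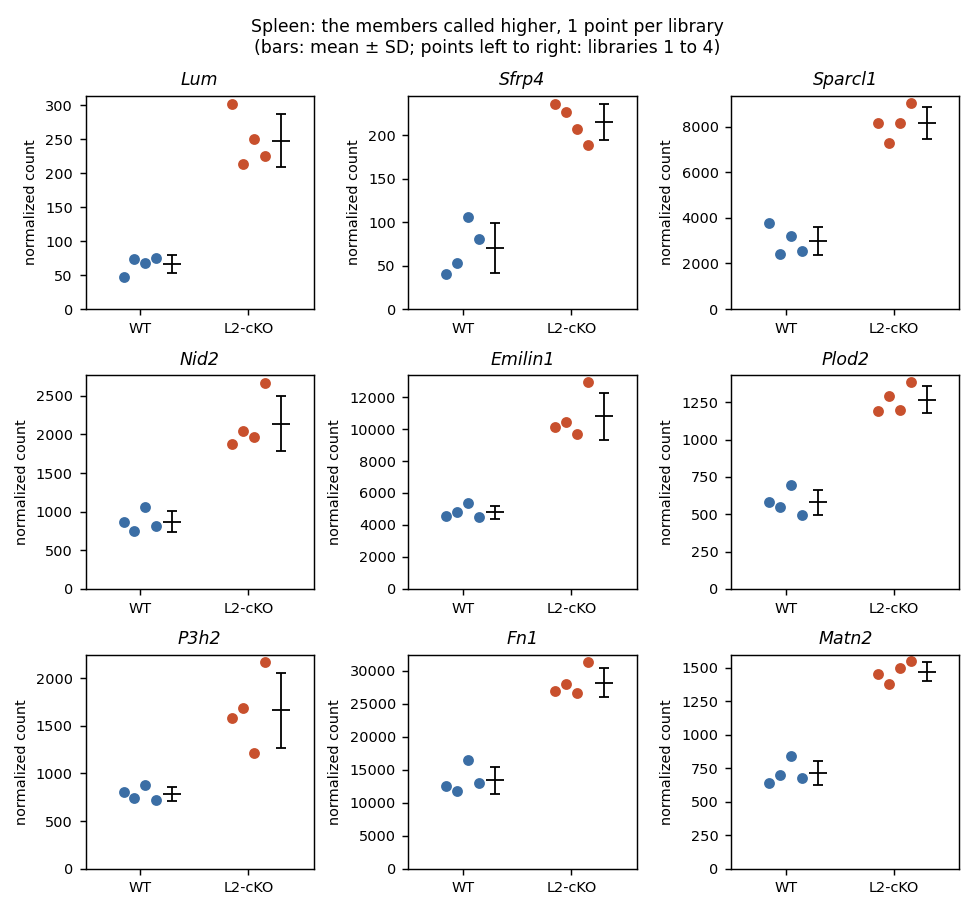
Normalized counts (vertical axes, from 0) of the 9 members called higher in the spleen, 1 point per library for 4 WT (blue) and 4 L2-cKO (red) spleens, with the mean ± SD beside each group. In each of the 9 genes the 4 L2-cKO points lie above the 4 WT points, and L2-cKO spleen 4, the rightmost red point, is the highest for *Nid2*, *Emilin1*, *Plod2*, *P3h2*, *Fn1*, *Sparcl1* and *Matn2*.

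For a single gene the smallest p of an exact two-sided permutation test over 4 against 4 spleens is 0.0286. That value is reached whenever the libraries of the genotypes do not overlap, as in all 9 called members. It therefore adds nothing to the lack of overlap. Among all genes tested, 9.61% did not overlap with L2-cKO higher and 10.8% with L2-cKO lower. When each spleen was left out in turn, 8 to 11 members were called. With WT spleen 3 alone as the control, that is, without the 3 WT spleens with the most acinar transcripts, only *Sparcl1* passed, and the log2 fold changes of the other 8 lay between 0.78 (*Fn1*) and 1.85 (*Lum*). That fit has 1 WT library, which is assumed to vary like the L2-cKO libraries. Without L2-cKO spleen 4 the number called was 9, with *Tnc* in place of *P3h2*.

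As summed normalized counts, markers of fibroblasts, smooth muscle and pericytes, and macrophages were higher in every L2-cKO spleen than in every WT spleen. Those of other cell types were not. As a share of all reads these lists overlapped too. L2-cKO spleen 3 had 0.154% for fibroblasts against 0.156% in WT spleen 3. It had 0.0420% for smooth muscle and pericytes against 0.0440% in WT spleen 2, and 0.115% for macrophages against 0.122% in WT spleen 1. Fibroblast markers summed to 53380.4 to 65204 normalized counts in WT spleens and 71138 to 92785 in L2-cKO spleens, with 9 of 10 above 0 in the fit, *Pdgfra* (1.59, adjusted p = 0.00104) and *Pdgfrb* (1.15, adjusted p = 5.48e-04) called higher and *Pi16* (-2.22, adjusted p = 0.0027) called lower. *Col1a1* and *Col3a1*, collagen genes of that list, had 0.34 and 0.18, and neither passed. Smooth muscle and pericyte markers summed to 12646 to 19400.1 and 20146 to 22052, with 7 of 9 above 0 and *Rgs5*, a pericyte gene, at 3.06 (adjusted p = 9.06e-04). Endothelial markers summed to 29493 to 41997 and 41043 to 61442, with 9 of 10 above 0 and none called. Macrophage markers summed to 31719 to 53689.9 and 54551 to 104066, with 7 of 8 above 0 and none called, and all 8 megakaryocyte and platelet markers were called lower (24174 to 47889.6 against 1211 to 1519.7). Reticular stroma markers summed to 23719 to 28886 and 21542 to 38868, with 4 of 7 tested above 0, and mesothelium markers to 1638 to 3458 and 1297 to 3183, with 2 of 8 above 0. B cell markers had 0 of 6 above 0, T cell markers 1 of 6 and erythroid markers 6 of 8, with summed levels that overlapped between the genotypes and none called. Their part in the change of the matrix genes was not tested.

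As a share of all reads, the 53 members took 0.426 to 0.495% of the WT spleen libraries and 0.477 to 0.806% of the L2-cKO spleen libraries, with L2-cKO spleen 3 inside the WT range. As summed normalized counts the members did not overlap (181781 to 206240 in WT spleens, 228694 to 310469 in L2-cKO spleens). In the ovary they took 1.29 to 1.34% and 1.42 to 1.53%, without overlap. Elastic fibre genes took 0.152 to 0.216% in WT and 0.141 to 0.252% in L2-cKO spleens, with overlap, and were the largest group in 3 of 4 WT spleens. Adhesive and matricellular genes took 0.135 to 0.159% in WT and 0.198 to 0.309% in L2-cKO spleens, with no overlap. Collagen-modifying genes (0.0402 to 0.0442% in WT, 0.0494 to 0.0813% in L2-cKO) and basement membrane genes (0.0445 to 0.0573%, 0.0591 to 0.114%) did not overlap either. Leucine-rich proteoglycan genes overlapped (0.0261 to 0.0310%, 0.0292 to 0.0501%). As summed normalized counts they did not overlap (11184 to 12931 in WT, 13985 to 19284 in L2-cKO). Elastic fibre genes overlapped on that scale too (63541.9 to 95108 in WT, 67822.5 to 97017 in L2-cKO).

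**Figure D3:**
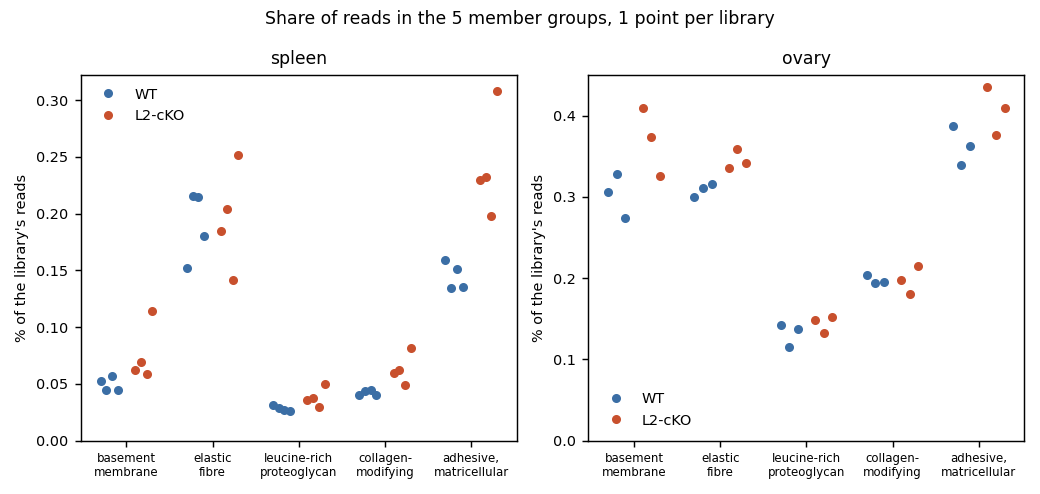
Percent of each library's gene reads (vertical axes, from 0) that fell on each of the 5 member groups in spleen (left) and ovary (right), 1 point per library, WT in blue and L2-cKO in red. In the spleen the adhesive and matricellular, collagen-modifying and basement membrane groups separate the genotypes by read share. The elastic fibre and leucine-rich proteoglycan groups overlap by read share, but the proteoglycan group does not overlap as summed normalized counts.

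In the ovary 1 of the 53 members was called, and it rose. *Sfrp4* had normalized counts of 376, 507 and 331 in WT ovaries 1 to 3 and 916, 917 and 1526 in L2-cKO ovaries 1 to 3. The lowest L2-cKO ovary was above the highest WT ovary, and the log2 fold change was 1.44 ± 0.24 (adjusted p = 0.0333). Of all 18504 genes tested there, 0.73% were called higher and 0.227% lower. By adjusted p alone *Nid2* also rose, by 0.37 (adjusted p = 0.0381), with 5741, 6064 and 5541 in WT and 7483, 7293 and 7631 in L2-cKO, where 1.23% of all genes rose and 0.351% fell. The call of *Sfrp4* was lost when any 1 ovary other than L2-cKO ovary 2 was left out. In those fits no member, *Nid2* included, passed the adjusted p limit. With a library left out the log2 fold change stayed between 1.20 and 1.62 for *Sfrp4* and between 0.34 and 0.40 for *Nid2*. With 3 against 3, no exact permutation test of a single gene can go below 0.1.

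Most ovary values were above 0. The log2 fold change was above 0 for 40 of 53 members (49.3% of all genes), with a median of 0.17 over the members and -0.0042 over all genes. In 14 members the L2-cKO ovaries did not overlap the WT ovaries and were higher (13.2% of all genes), and in none were they lower without overlap (12.0% of all genes). Basement membrane genes had a median of 0.25 with 9 of 10 above 0, and 5 of the 14 were of this group (*Nid1*, *Nid2*, *Lama4*, *Lamb1* and *Lamb2*). *Lama4* had 3408, 2930.4 and 3216 in WT and 4812, 4302 and 3898 in L2-cKO (0.44, adjusted p = 0.079). *Prelp*, a proteoglycan that anchors basement membrane to connective tissue, had 1521, 1489 and 1463 and 1874, 1783 and 2063 (0.35, adjusted p = 0.0804). None of the 11 collagen-modifying genes separated the ovaries by genotype, and their median was 0.036. Endothelial markers summed to 16873 to 17773 in WT ovaries and 20596 to 23672 in L2-cKO ovaries. Also higher without overlap were markers of reticular stroma (12324 to 12709, 13360 to 13893), macrophages (2179 to 2672, 2736 to 3495) and T cells (146 to 165, 302 to 410). Pancreatic acinar markers were lower without overlap (1591 to 1915, 869 to 986). Fibroblast markers (351627 to 392397, 349218 to 411399) and the other lists overlapped. The part of these cell types in the values of the members was not tested.

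Some members were unsteady among ovaries of 1 genotype. *Aspn* had 1791, 746 and 681 in WT and 2301, 420.3 and 1492 in L2-cKO, with coefficients of variation of 58.1% and 67.2%. *Ogn*, which lies in the same cluster on chromosome 13, had 9766, 6041 and 5895 and 10276, 3156 and 7999.6, with its lowest value also in L2-cKO ovary 2. *Vcan* had 10772, 7717 and 5874 and 13525, 4483 and 6707. In these 3 genes ovary 1 was the highest library in each genotype. The median coefficient of variation over the 53 members was 8.39% in WT and 12.7% in L2-cKO ovaries, and 13.8% and 17.2% in the spleens.

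**Figure D4:**
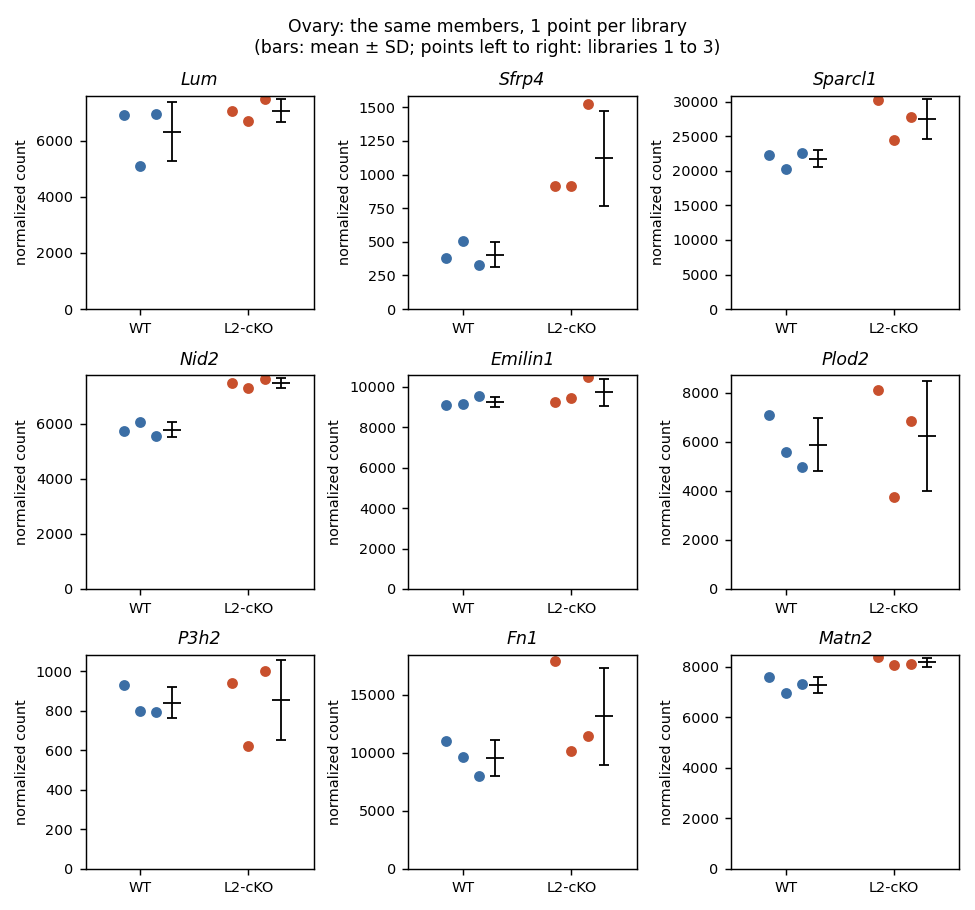
Normalized counts (vertical axes, from 0) in the ovary of the 9 members called higher in the spleen, 1 point per library for 3 WT (blue) and 3 L2-cKO (red) ovaries, with the mean ± SD beside each group. *Sfrp4*, *Nid2*, *Sparcl1* and *Matn2* show red points above all blue points, and the other 5 overlap.

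Set side by side, the 9 members called in the spleen had ovary log2 fold changes of 0.18 for *Lum*, 1.44 for *Sfrp4*, 0.33 for *Sparcl1*, 0.37 for *Nid2*, 0.070 for *Emilin1*, 0.027 for *Plod2*, -0.0014 for *P3h2*, 0.43 for *Fn1* and 0.17 for *Matn2*. *Sfrp4* was the member called in both organs. *Lum*, the member with the largest spleen value, was plentiful in WT ovary (6927, 5097 and 6930.0) and had 7041, 6689 and 7484 in L2-cKO ovaries (adjusted p = 0.527). *Emilin1* had 9084, 9169.9 and 9527 in WT and 9252, 9453 and 10491 in L2-cKO ovaries, within its spread. The spleen and ovary tables were normalized separately, and the difference between organs was not tested.

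Members with and without the 7-mer had overlapping ranges of values. In the spleen the 14 members with it had a median log2 fold change of 0.54 and the 39 without it 0.44, and 4 of the 14 and 5 of the 39 were called higher. Over all genes tested the medians were 0.046 with and -0.029 without the 7-mer, and 2.55% and 3.01% were called higher. *Lum*, *Sfrp4* and *Sparcl1*, the members with the largest spleen values, had none in the longest 3′UTR. In the ovary the medians of the members were 0.050 with and 0.17 without it. The members with the 7-mer also had longer 3′UTRs (median 1134 against 899 nucleotides). The difference between members with and without it was not tested.

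**Figure D5:**
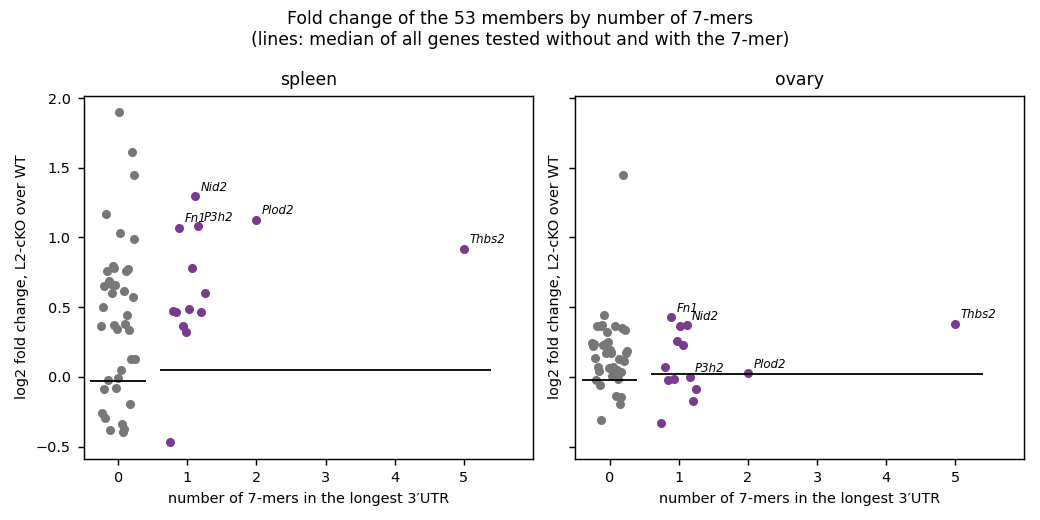
Log2 fold change (L2-cKO over WT, vertical axis) of the 53 members against the number of UAUUUAU 7-mers in the longest 3′UTR (horizontal axis) in spleen (left) and ovary (right). Grey points are the 39 members without and purple points the 14 with the 7-mer, and black lines are the medians of all genes tested without and with it; *Thbs2*, with 5, lies at 0.92 in spleen and 0.38 in ovary.

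Other matrix genes of the same pathways, 76 in all, were read for context, and 63 were tested in the spleen and 69 in the ovary. In the spleen 7 were called higher and 3 lower, and in the ovary 1 was called higher. Of 18 other basement membrane genes tested in the spleen 6 rose by adjusted p and none fell. They included both chains of the common collagen IV, *Col4a1* (1.40, adjusted p = 4.01e-04) and *Col4a2* (1.26, adjusted p = 4.11e-04), *Col18a1* (1.30, adjusted p = 3.87e-05) and *Smoc2* (1.65, adjusted p = 3.21e-04), a SPARC-related calcium-binding protein. *Lama1*, *Lama3* and *Lamb3*, for laminin chains of epithelia, were not called, with log2 fold changes of 0.13, 0.24 and -0.032.

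Of 8 other elastic fibre genes tested in the spleen, none rose and 3 fell by adjusted p. *Mmrn1*, for multimerin-1 of platelets and endothelium, fell from between 891 and 1184 to between 34.8 and 75.9 normalized counts (-4.15, adjusted p = 1.23e-05), and *Ltbp1* fell from between 835 and 1040.0 to between 172 and 394 (-1.77, adjusted p = 0.0039). *Fbln7*, for fibulin-7, fell within the fold limit (-0.82, adjusted p = 0.0367). *Thbs1*, for thrombospondin-1, a main protein of platelet granules and a paralog of *Thbs2*, fell from between 9842 and 12055 to between 968 and 1494 (-3.26, adjusted p = 8.84e-06). The megakaryocyte and platelet markers fell in the same libraries, and their part in these values was not tested. In the ovary, where those markers summed to 257 to 335 in WT and 320.0 to 406 in L2-cKO, the log2 fold changes of *Mmrn1*, *Ltbp1* and *Thbs1* were 0.26, -0.063 and -0.15.

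None of the 10 other proteoglycan genes tested in the spleen passed the adjusted p limit. Among 13 other collagen-modifying genes 3 rose, namely *Pcolce2* (1.71, adjusted p = 0.0166), another enhancer of procollagen processing, *Bmp1* (0.72, adjusted p = 0.00893), the procollagen C-proteinase itself, and *P3h4* (0.51, adjusted p = 0.0319). The prolyl 4-hydroxylase subunits, which make the hydroxyproline that stabilizes the triple helix, had 0.24 for *P4ha1*, 0.52 for *P4ha2*, 0.35 for *P4ha3* and 0.27 for *P4hb*, and none passed. Among 14 other adhesive and matricellular genes 3 rose and 1 fell. *Tnn*, for tenascin-N, had 71.7, 47.5, 49.7 and 54.6 in WT and 462, 405, 563 and 425 in L2-cKO spleens (3.05, adjusted p = 1.86e-05). *Spp1* (osteopontin) rose by 1.28 (adjusted p = 0.0434) and *Igfbp7* by 0.60 (adjusted p = 0.0301). In the ovary *Matn1*, for the cartilage matrilin, rose from 18.3, 19.2 and 30.3 to 110.0, 101 and 117 (2.26, adjusted p = 0.0112), and *Mgp*, for matrix Gla protein, rose by 0.59 (adjusted p = 0.0112) without reaching the fold limit.

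The organs differed in which members were most abundant. Per kb of exon, the order in WT spleen began with *Sparc* at 10079.9 normalized counts per kb, *Eln* at 6087, *Serpinh1* at 2552, *Bgn* at 1651 and *Nid1* at 1265. In WT ovary, on its own scale, it began with *Sparc* at 18414, *Serpinh1* at 13048, *Sparcl1* at 7406, *Mfap2* at 6198 and *Mfap4* at 5187. *Eln* ranked 10 of 53 in the ovary. *Lum* ranked 51 in WT spleen and 11 in WT ovary, and *Dcn* 33 and 8. *Sfrp4* was the lowest member in both, at 16.8 and 96.9. Within groups, *Nid1* and *Agrn* led the basement membrane genes in spleen and *Nid1* and *Lamb1* in ovary. *Ltbp4* was second to *Eln* among the elastic fibre genes of the spleen, *Pcolce* was second to *Serpinh1* among the collagen-modifying genes of the spleen and *Loxl1* in the ovary, and *Fn1* was second to *Sparc* among the adhesive genes of the spleen. Levels per kb use the summed length of all annotated exons, which can exceed the length of the transcript made in the organ.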

How the data were processed

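The authors trimmed reads with Trimmomatic 0.36, aligned them with STAR 2.5.2b to GRCm38 and counted them on genes with featureCounts of Subread 1.5.2. For the spleen the authors deposited counts, without normalization. For the ovary they deposited normalized values within a comparison table, a signal equal to the count divided by 1 size factor per library. Every ovary value was a whole multiple of 1 step per library (100.0% within 0.001 of a read), so reads were recovered. The deposited fold changes and p-values of the authors' own comparisons were not used, nor were 16 further columns that repeat the spleen libraries as normalized values.

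Spleen counts were tested with edgeR 4.0.16 (quasi-likelihood, TMM) where 4 or more libraries had 10 or more counts, and ovary values with limma 3.58.1 (trend) on log2(value + 1) where 3 or more libraries had a value of 10 or more, so that ovary fold changes of low genes are understated. P-values were adjusted over all genes tested (Benjamini-Hochberg), and a gene was called at an adjusted p below 0.05 and a log2 fold change above 1 in size. DESeq2 1.42.0, other filters, sex, a replicate block and leaving libraries out were tried as alternatives, and the fits were tested on simulated data. The SE of a spleen log2 fold change was derived from the F statistic of the edgeR fit, and that of an ovary value from the variance in the limma fit. These variances start from the spread between libraries, of 1 animal each, with counting error part of it. They are moderated with information from all genes. The members and lists were chosen with earlier results of these data known. Genes named with values are those called or below the adjusted p limit, the 2 most abundant of each group, those with 2 or more 7-mers and the called pathway genes; further members were named to account for the whole list. In the labels 2 WT spleens carry the number 3, and the male was named WT spleen 4. Protein sequences were not used here.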

Additional observations from a re-analysis of the deposited data

Results flagged for a closer look

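In 9 of the 106 member and genotype combinations of the spleen, 1 library lay far from the other 3, with a gap to the nearest that took more of the group's range than Dixon's 95% limit. Chance gives this in about 1 of 20 groups, and the ovary groups, with 3 libraries, were not examined. L2-cKO spleen 4 held 3 of them and was high in each, with 1311 for *Lama2* against 845 to 897 in the other 3 (gap over range 0.889), 4980.5 for *Agrn* against 2709.9 to 2868 in the other 3 (gap over range 0.930) and 5105 for *Tnxb* against 3450.4 to 3549 in the other 3 (gap over range 0.940). WT spleen 3 held 3, with 3691 for *Agrn* against 2075 to 2328 in the other 3 (gap over range 0.843), 291 for *Ogn* against 189 to 205 in the other 3 (gap over range 0.841) and a low value of 136 for *Aspn* against 164 in the other 3 (gap over range 0.984). Single cases were *Mfap4* in L2-cKO spleen 3, low at 669 against 854 to 879 in the other 3 (gap over range 0.880), *Tnc* in L2-cKO spleen 1, high at 381 against 271 to 286 in the other 3 (gap over range 0.869), and *Prelp* in WT spleen 1, high at 449 against 201 to 237 in the other 3 (gap over range 0.852). None of these 8 genes was called in the spleen, and *Tnc*, the nearest to a call, had its high library in the group with the higher mean.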

How the results depend on the processing

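The 9 spleen calls and the 1 ovary call were recomputed under 16 and 12 alternatives. The number of spleen members called higher was 9 or 10 under DESeq2, DESeq2 size factors, both other filters, sex as a covariate, males only and the replicate block, 8 to 11 when each spleen was left out in turn, 27 with no limit on the fold, and 1 (*Sparcl1*) with WT spleens 1, 2 and 4 left out, which was added once the acinar reads had been seen. There the other 8 had 1.85 for *Lum*, 1.02 for *Nid2*, 1.01 for *Sfrp4*, 1.01 for *Emilin1*, 0.93 for *P3h2*, 0.86 for *Plod2*, 0.80 for *Matn2* and 0.78 for *Fn1*; that fit has 1 WT library, and over all genes it called 65 higher, against 490. No member was called lower under any of them. *P3h2* was lost without L2-cKO spleen 4, and *Matn2* was lost without WT spleen 1 (0.99). The median of the members in the spleen ranged from 0.43 to 0.55 with a library left out, and in the ovary from 0.099 to 0.18. In the ovary 0 to 1 members were called with a library left out, 2 with no limit on the fold and 1 otherwise.

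Libraries with the same number in the labels did not deviate together throughout. In the spleen the correlations were -0.14 for the libraries numbered 1 and 0.094 for those numbered 2. WT spleens 3 and 4, which carry the number 3 in the labels, gave 0.18 and 0.13 with L2-cKO spleen 3. L2-cKO spleen 4 had no WT spleen of its number. In the ovary the correlations were 0.38, 0.21 and 0.072, so the numbers were not taken as pairs. The replicate block was set by these label numbers. In the spleen WT 3 and WT 4 shared a block. L2-cKO spleen 4 was alone in its block, so it did not inform the genotype difference. With the block 9 spleen members were called, with *Tnc* (1.04) in place of *P3h2* (0.89), the same 9 as without L2-cKO spleen 4. In the ovary *Sfrp4* alone was called. In the spleen the sign changed for *Dcn* (0.0015), *Mfap2* (-0.066) and *Tnxb* (-0.030).

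Signs changed only for members that were not called in that organ. In the spleen they changed with WT spleens 1, 2 and 4 left out for *Agrn* (-0.15), *Fbln5* (0.064), *Lama5* (-0.0089) and *Vcan* (-0.062), in males only for *Ltbp4* (0.15) and *Mfap2* (-0.088), with sex as a covariate for *Mfap2* (-0.10), and with every gene of at least 1 count for *Ltbp4* (0.0032). In the ovary they changed on recovered reads for *P3h2* (0.021 by edgeR, 0.026 by DESeq2), *Vcan* (0.016 and 0.021) and *Lama5* (0.0019 by DESeq2). With a library left out they changed for 7 members in the spleen, with ranges of -0.22 to 0.043 for *Dcn*, -0.16 to 0.079 for *Fbln5*, -0.22 to 0.024 for *Ltbp2*, -0.28 to 0.16 for *Ltbp4*, -0.10 to 0.19 for *Mfap2*, -0.0066 to 0.45 for *Prelp* and -0.028 to 0.20 for *Tnxb*, and for 18 in the ovary, with ranges of -0.29 to 0.93 for *Aspn*, -0.055 to 0.017 for *Efemp2*, -0.022 to 0.21 for *Emilin2*, -0.077 to 0.013 for *Fbln1*, -0.16 to 0.25 for *Fbln2*, -0.17 to 0.14 for *Lama5*, -0.042 to 0.092 for *Mfap2*, -0.013 to 0.18 for *Mfap4*, -0.061 to 0.10 for *Mfap5*, -0.49 to 0.37 for *Ogn*, -0.0090 to 0.10 for *P3h1*, -0.13 to 0.21 for *P3h2*, -0.087 to 0.027 for *P3h3*, -0.35 to 0.018 for *Plod1*, -0.20 to 0.36 for *Plod2*, -0.058 to 0.17 for *Plod3*, -0.00034 to 0.37 for *Tnc* and -0.52 to 0.27 for *Vcan*. The cause was not tested. The WT spleen levels behind the largest folds are low, at 47.2 to 75.8 normalized counts for *Lum* and 40.6 to 106 for *Sfrp4*.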
